A study of Mus musculus with 6 samples.

Results

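The genes described here encode the proteins of the cytoplasmic ribosome. They were taken by symbol, as every Rpl or Rps gene with a plain number (with or without a closing a, x, l or y) together with Rplp0, Rplp1, Rplp2 and Rpsa, leaving out pseudogene symbols ending in -ps and the mitochondrial Mrp genes. This gave 81 of the 44788 genes listed, of which 32 belong to the small subunit, 46 to the large subunit and 3 to the stalk of the large subunit. The values are read counts from RNA of endometrium, the inner lining of the uterus, from female ICR mice in 2 groups of 3 libraries. As newborns, on days 2 to 5 of life, all mice of both groups had been given oral tamoxifen at a dose of 2.7 µmol/kg, which served to induce adenomyosis, the growth of endometrial tissue into the muscle of the uterus. After 75 days, 8 mice of the agonist group were injected with the GnRH agonist Decapetyl from day 3 to day 9 of estrus, at a daily 1.5 µg per 100 g of body weight, while the 8 of the no-agonist group were injected with solvent. All were mated 4 weeks later, and the tissue was scraped off on day 4 of pregnancy from uteri in which adenomyosis had been diagnosed by histology. No label links a library to 1 animal, and the spread behind each p-value is that between libraries, which may be technical.

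The ribosome is made of ribosomal RNA and about equal amounts of each of its proteins, so the genes for these proteins are usually expressed together. The small subunit reads the message, the large subunit joins the amino acids, and the stalk proteins recruit the elongation factors. Their messenger RNAs typically begin with a run of pyrimidines, through which the kinase mTOR and the RNA-binding protein LARP1 tie their translation to growth signals. Most of these genes have also left processed pseudogenes in mammalian genomes, copies of the spliced message without introns. The comparison of agonist with no agonist asked how the treatment altered the endometrial transcriptome around the time at which the uterus becomes receptive.

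The near-identical copies bear on every value that follows, so 4 pairs are shown here. Each pair is a stretch of 60 bases from the coding part of a gene and from its most counted copy, with the bases that differ in capitals. Rps13, Rps19, Rps20 and Rpl15 were the genes with the smallest p-values among those measured higher with agonist. The stretches are in sense orientation from GENCODE M21 transcripts on GRCm38, and within the aligned part of each transcript they are the ones with the most differences.
Rps13: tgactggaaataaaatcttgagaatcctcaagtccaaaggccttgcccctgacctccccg
Rps13-ps2: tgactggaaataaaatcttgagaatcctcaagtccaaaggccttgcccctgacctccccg
Rps19: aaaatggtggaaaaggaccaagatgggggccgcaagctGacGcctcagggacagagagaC
Rps19-ps6: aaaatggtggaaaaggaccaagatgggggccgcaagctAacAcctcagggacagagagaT
Rps20: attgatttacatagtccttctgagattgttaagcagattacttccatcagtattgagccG
Gm4332: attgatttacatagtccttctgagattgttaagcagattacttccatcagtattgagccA
Rpl15: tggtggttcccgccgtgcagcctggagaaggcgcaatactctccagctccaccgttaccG
Gm4294: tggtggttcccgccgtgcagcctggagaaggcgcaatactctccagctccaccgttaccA
Over the whole aligned stretch, Rps13 (chr7:116331505-116334195, minus strand) and Rps13-ps2 (chr7:88530446-88530898) were identical across 453 bases, so no read that lies inside them can be told apart. Rps19 (chr7:24884371-24889806, plus strand) and Rps19-ps6 (chr12:110898114-110898551) had 5 mismatches in 438 bases. Rps20 (chr4:3831334-3835665, minus strand) and Gm4332 (chr3:119709516-119709861) had 1 mismatch in 346 bases. Rpl15 (chr14:18267823-18271391, minus strand) and Gm4294 (chr12:12023045-12023658) had 1 in 614. All 4 copies are annotated as processed pseudogenes.

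The 6 libraries held 12220461, 14104266 and 11720958 counts with agonist, and 13137470, 12520684 and 12053447 counts without it. In such libraries 3 counts, the most that a count of 0 allows, corresponded to 0.213 to 0.256 CPM, the unit of scaled counts used below. The 18S ribosomal RNA row took 1.94%, 0.254% and 0.369% of the counts with agonist, and 0.363%, 3.31% and 0.350% without it, and thus stood apart in agonist library 1 and no-agonist library 2. All 8 markers of endometrial stroma and all 8 of epithelium were counted in every library, which fits the labelled tissue, and so were all 8 of smooth muscle, a tissue of the uterine wall. The summed stromal markers ranged from 1919 to 2151 CPM with agonist and from 1393 to 2243 CPM without it, with no-agonist library 2 the lowest. The summed epithelial markers reached 3756 to 5358 CPM with agonist and 6330 to 11570 CPM without it, 2 ranges that do not overlap. The smooth muscle markers ranged from 2968 to 11931 CPM with agonist and from 7643 to 19462 CPM without it. The red blood cell markers ranged from 346 to 1883 CPM with agonist and from 120 to 1047 CPM without it. The endothelial markers, all 6 counted in every library, ranged from 324 to 430 CPM with agonist and from 201 to 292 CPM without it, and those groups did not overlap. The 8 leukocyte markers ranged from 193 to 308 CPM with agonist and from 110 to 416 CPM without it, and the 6 markers of dividing cells from 151 to 720 CPM with agonist and from 76.5 to 296 CPM without it. The leukocyte and stromal sums hide markers that went opposite ways. Of the leukocyte markers, 5 log2 fold changes, agonist over no agonist, were positive and 3 negative, from -1.63 to 2.17. Of the stromal markers, 6 were positive and 2 negative, from -1.02 to 0.63. The part of these cell types, and of 18S RNA, in the values of the ribosomal protein genes was not tested. In a bulk tissue, fewer cells of a type and less RNA per cell cannot be told apart.

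Ribosomal protein genes made up a slightly larger part of the counts with agonist, by less than the libraries of a group differed from each other. Their share was 3.05%, 3.47% and 3.85% in agonist libraries 1, 2 and 3, against 2.62%, 3.39% and 2.46% in no-agonist libraries 1, 2 and 3. The mean was 3.46% ± 0.399 with agonist and 2.82% ± 0.495 without it (SD, n = 3 each). No-agonist library 2, at 3.39%, lay above agonist library 1, so the groups overlapped. The depth was not the limit on this: the exact (Clopper-Pearson) 95% interval was 3.04 to 3.06% for agonist library 1 and 3.38 to 3.40% for no-agonist library 2. These intervals cover counting error alone. The shares are of unscaled library totals. In CPM, which use scaled library sizes, the genes summed to 29911, 33265 and 34713 in agonist libraries 1, 2 and 3. The sums were 26027, 36910 and 27249 CPM in no-agonist libraries 1, 2 and 3, so no-agonist library 2 was then the highest of all.

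**Figure D1:**
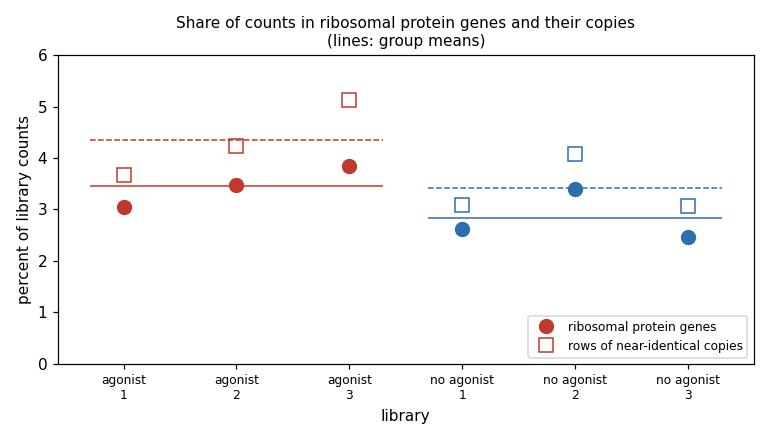
Percent of each library's counts in the 81 ribosomal protein genes (filled circles) and in the rows of their near-identical copies (open squares), for agonist libraries (red, left) and no-agonist libraries (blue, right), with lines at the group means. In every library the copies hold more counts than the genes, and no-agonist library 2 lies apart from the other 2 of its group on both measures.

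The rows of the copies held still more. GENCODE M21 annotates 620 genes whose transcripts match 1 of 75 ribosomal protein genes over at least 150 bases at 95% identity or more, and 592 of them are processed pseudogenes. The table listed 446 of these copies, and 442 had counts. They took 3.67%, 4.24% and 5.13% of the counts with agonist, against 3.09%, 4.08% and 3.06% without it, more than the genes themselves in each library. These shares, too, are of unscaled library totals. The copies thus had the same low and high libraries among the no-agonist libraries as the genes.

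In the deposited table, genes with more such copies had lower levels. Per kilobase of transcript, the 77 tested genes with an annotated transcript spanned from 3.57 CPM for Rpl29 to 3826 CPM for Rplp1, a range of 1073-fold for proteins that ribosomes hold in about equal numbers. Across these 77 genes the Spearman correlation of the number of copies with CPM per kilobase was -0.53, as a description, since genes of a library are no replicates. The median was 1721 CPM per kilobase for the 3 tested genes without a copy, 332 for 30 genes with 1 to 4 copies, 94.3 for 24 genes with 5 to 9 copies and 63.6 for 20 genes with 10 or more.

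**Figure D2:**
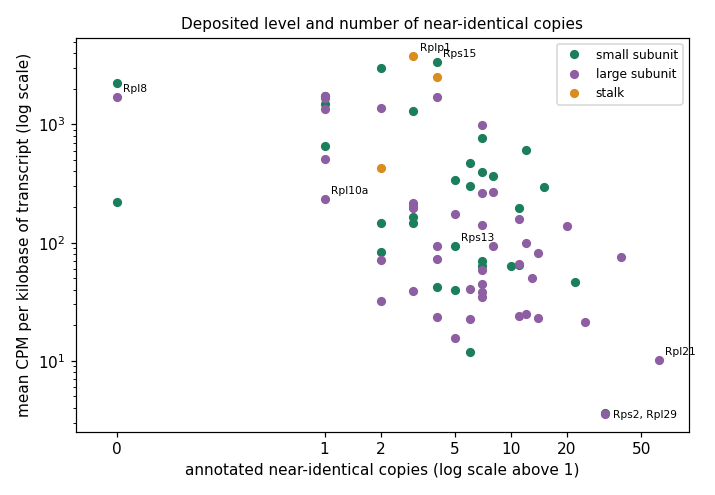
Mean CPM per kilobase of transcript over the 6 libraries (log scale) against the number of annotated near-identical copies for the 77 tested genes with an annotated transcript, coloured by subunit. Genes with few copies reach 3826 CPM per kilobase, and Rpl29 and Rps2, with 32 copies each, lie at 3.57 and 3.59.

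Among the highest genes per kilobase were Rplp1 and Rplp0, both stalk proteins, with 3826 and 2504 CPM per kilobase, the small subunit genes Rps15 and Rps14 with 3391 and 2979, and Rpl41, which encodes the smallest protein of the large subunit, with 1732. None of these 5 had more than 4 copies. The 3 lowest were Rpl29 with 3.57, Rps2 with 3.59 and Rpl21 with 10.2 CPM per kilobase, which had 32, 32 and 62 copies. Of the reads on Rps2 and its copies, 0.628% were on the row of Rps2 itself, which held 47, 54 and 47 counts with agonist, and 60, 45 and 22 counts without it. Rpl10a, whose 1 copy Rpl10a-ps1 is identical to it across 648 bases, held 10.3% of the reads on the pair. Rps20 had a transcript model of 3706 bases, far longer than that of the other genes named here, which lowers its level per kilobase.

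Adding the reads of all copies to their best-matching gene, a choice made after seeing the data, brought the genes closer together. The range then ran from 32.4 to 8399 CPM per kilobase, or 260-fold, and the SD over the 77 genes was 1.45 on the log2 scale, against 2.37 on their own rows. The correlation with the number of copies was -0.49. Because 13 of the copies are annotated as protein-coding genes with a message of their own, this sum is an alternative and not a corrected level.

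Between the groups, most ribosomal protein genes had a higher mean with agonist by a small amount, and none passed the test across all genes. Of the 81 genes, 78 had enough counts to be tested. The log2 fold change, agonist over no agonist, was positive in 59 of the 78, or 75.6%, against 52.2% of the 16581 genes tested in all. Its median was 0.18, against 0.018 over all genes. By edgeR's quasi-likelihood test with Benjamini-Hochberg adjustment 0 of 78 genes were called, and 0% of all genes were called in either direction. The smallest adjusted p was 0.424 for the ribosomal protein genes and 0.156 over all genes. At an unadjusted p under 0.05, 3 of 78 were on the higher side and none on the lower, against 4.17% higher and 5.09% lower over all genes. The likelihood ratio test of edgeR, DESeq2 and limma-voom each called 0 of 78 at an adjusted p under 0.05. Over all genes the likelihood ratio test called 0.627% higher and 0.989% lower, DESeq2 0.840% higher and 1.52% lower, and limma-voom 0% in either direction.

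These numbers depended on single libraries. With each gene centred on its mean over the 6 libraries, the median level of the 78 genes on the log2 scale was 0.040, 0.016 and 0.22 in agonist libraries 1, 2 and 3, against -0.25, 0.26 and -0.32 in no-agonist libraries 1, 2 and 3. The highest and the lowest library were both no-agonist libraries. Of the 78 genes, 31 had their highest level of all 6 libraries in no-agonist library 2 and none had its lowest there, while 39 had their lowest level in no-agonist library 3 and 23 in no-agonist library 1. No-agonist library 2 also had the highest 18S share, 3.31%, whose part in these levels was not tested.

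Without no-agonist library 2, the groups did not overlap in 34 of 78 genes higher with agonist, or 43.6%, against 11.9% of all genes on the same 5 libraries. With all libraries they were 4. At an unadjusted p under 0.05 there were 10 genes on the higher side, or 12.8%, against 3.57% of all genes. The median log2 fold change was 0.37. That library held the highest level of 31 of the 78 genes, so higher values with agonist in its absence were largely set in advance. It does not stand out in this way over all genes, so the differences from their shares decide nothing. Without no-agonist library 3 the median was 0.078, without agonist library 3 it was 0.099, and without no-agonist library 1 it was 0.11. Without no-agonist library 1 or 3, 1 gene each had an unadjusted p under 0.05 on the higher side, against 4.46% and 3.45% of all genes. Without agonist library 1 or 2, 10 and 12 genes did not overlap on the higher side, or 12.8% and 15.4%, against 15.05% and 13.4% of all genes. Without agonist library 3 there were 5, or 6.41%, against 10.3%. Without no-agonist library 1 or 3 there were 4 each, or 5.13%, against 13.1% and 11.9%. On the lower side, leaving out no-agonist library 1 gave 5 genes that did not overlap, and leaving out either agonist library 1 or no-agonist library 3 gave 2, where 1 was found with all libraries. Of all genes, 12.7%, 14.1% and 12.1% did not overlap on that side under these 3 omissions. Under each of these omissions 0 genes were called.

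**Figure D3:**
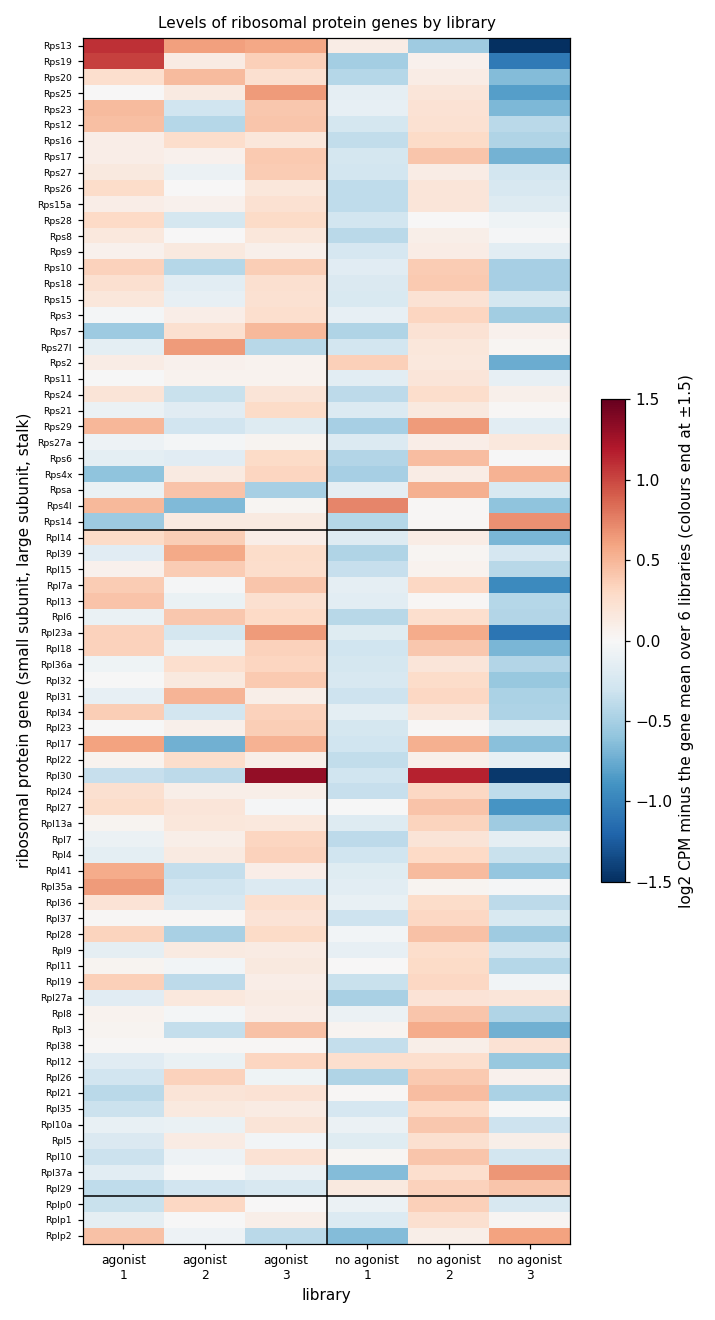
Log2 CPM of 76 of the 78 tested genes minus the gene's mean over the 6 libraries, with agonist libraries on the left and no-agonist libraries on the right and genes grouped as small subunit, large subunit and stalk, each ordered by fold change. No-agonist library 2 is mostly above the mean (median over all 78 genes 0.26) and no-agonist libraries 1 and 3 are mostly below it (median -0.25 and -0.32).

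The genes of the small and of the large subunit had like medians. Of the 32 small subunit genes, 25 had a positive log2 fold change, with a median of 0.18. Of the 43 large subunit genes tested, 34 had one, with a median of 0.18 as well. The 3 stalk genes all had a negative value, with a median of -0.05, but each of these signs turned with the scaling. With library totals alone, Rplp0 was at 0.16, Rplp1 at 0.13 and Rplp2 at 0.10, on a scale on which the median of all genes itself was 0.18 in place of 0.018.

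**Figure D4:**
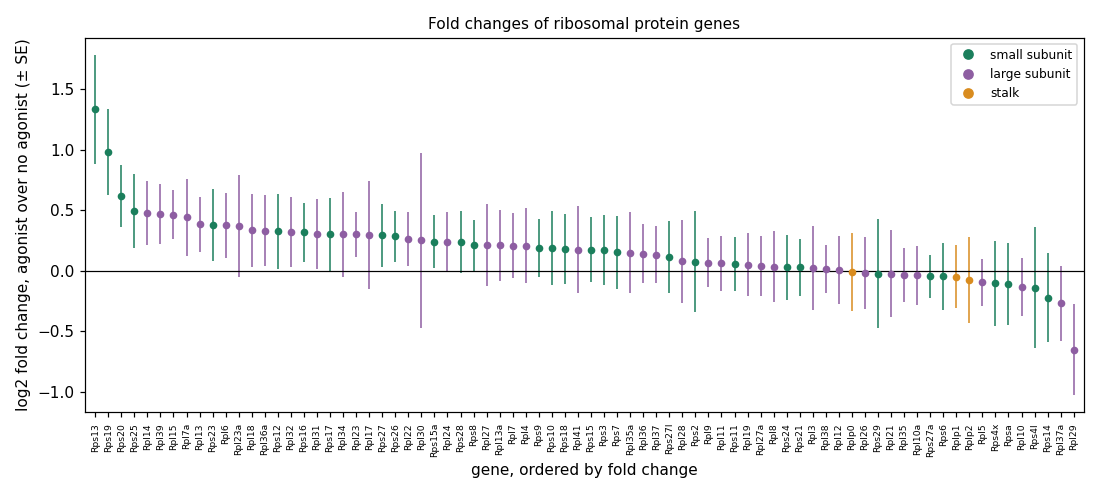
Log2 fold change, agonist over no agonist, with its standard error (bars) for 76 of the 78 tested genes, ordered by value and coloured by subunit. Of these, 58 lie above 0, and Rps13, Rps19 and Rps20 lie highest at 1.33, 0.98 and 0.62.

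Groups that did not overlap were found in 4 genes with higher values with agonist, Rps13, Rps19, Rps20 and Rpl15, and in 1 with lower values, Rpl29. Over all genes the shares were 6.94% and 7.61%, above the 5.13% and 1.28% of the ribosomal protein genes. In the small subunit, Rps13, whose protein lies where the subunits touch, measured 98.8, 70.4 and 68.6 CPM with agonist, against 49.9, 31.8 and 12.5 CPM without it. Every agonist library lay above every no-agonist library, and the log2 fold change was 1.33 ± 0.45 (SE, edgeR quasi-likelihood unadjusted p = 0.0193, adjusted p = 0.424, n = 3 each). Rps19, a protein of the small subunit head whose human counterpart is mutated in Diamond-Blackfan anaemia, measured 458, 246 and 288 CPM with agonist, against 158, 235 and 108 CPM without it. Its groups were separated by a narrow gap between agonist library 2 and no-agonist library 2, and the log2 fold change was 0.98 ± 0.36 (SE, edgeR unadjusted p = 0.0257, adjusted p = 0.472).

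Rps20, another protein of the head, measured 357, 417 and 355 CPM with agonist, against 222, 324 and 190 CPM without it, with a log2 fold change of 0.62 ± 0.25 (SE, edgeR unadjusted p = 0.0415, adjusted p = 0.519). The agonist libraries lay close together, and no-agonist library 2 came nearest to them. Rpl15, a core protein of the large subunit, measured 67.2, 83.2 and 76.8 CPM with agonist, against 50.3, 66.6 and 47.9 CPM without it, with a log2 fold change of 0.46 ± 0.20 (SE, edgeR unadjusted p = 0.0506, adjusted p = 0.540). The gap was narrow in this gene as well, between agonist library 1 and no-agonist library 2. Rpl29, of the large subunit, measured 1.52, 1.63 and 1.69 CPM with agonist, against 2.26, 2.61 and 2.76 CPM without it, with a log2 fold change of -0.65 ± 0.38 (SE, edgeR unadjusted p = 0.123, adjusted p = 0.663). This row held 19, 24 and 22 counts with agonist, against 30 counts in each library without it, so it rested on few reads.

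These 5 genes held between 6.99% and 33.4% of the reads on themselves and their copies. With the copies added, the values of Rps20 still did not overlap, at 1135, 1251 and 1180 CPM with agonist, against 698, 1033 and 614 CPM without it, and its log2 fold change was 0.61 ± 0.27 (SE, edgeR unadjusted p = 0.0583, adjusted p = 0.550). Rps13 then measured 427, 440 and 266 CPM with agonist, against 305, 278 and 239 CPM without it, and its groups overlapped. Its log2 fold change was 0.47 ± 0.26 on that scale, less than 1.33 on its own row. Rps19 was at 0.43 ± 0.31 and Rpl15 at 0.35 ± 0.30, both with overlapping groups. Rpl29 was then at 0.30 ± 0.40, with 29.8, 25.9 and 40.9 CPM with agonist, against 22.8, 41.7 and 13.8 CPM without it. On this scale 4 genes did not overlap on the higher side and 1 on the lower, against 6.99% and 7.66% of all genes. Beside Rps20 these were Rpl35a, Rps27 and Rps28 on the higher side and Rpl21 on the lower. Rpl35a and Rps28 are named for this after their values were seen. Rpl35a, of the large subunit, had the smallest p with the copies added, at 161, 123 and 148 CPM with agonist, against 86.6, 117 and 88.3 CPM without it, a log2 fold change of 0.57 ± 0.21 (SE, edgeR unadjusted p = 0.0292, adjusted p = 0.477). Its own row was at 0.15 ± 0.33. Rps27 was at 0.54 ± 0.26 and Rps28 at 0.36 ± 0.19 with the copies added, and Rpl21 was at -0.21 ± 0.18.

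**Figure D5:**
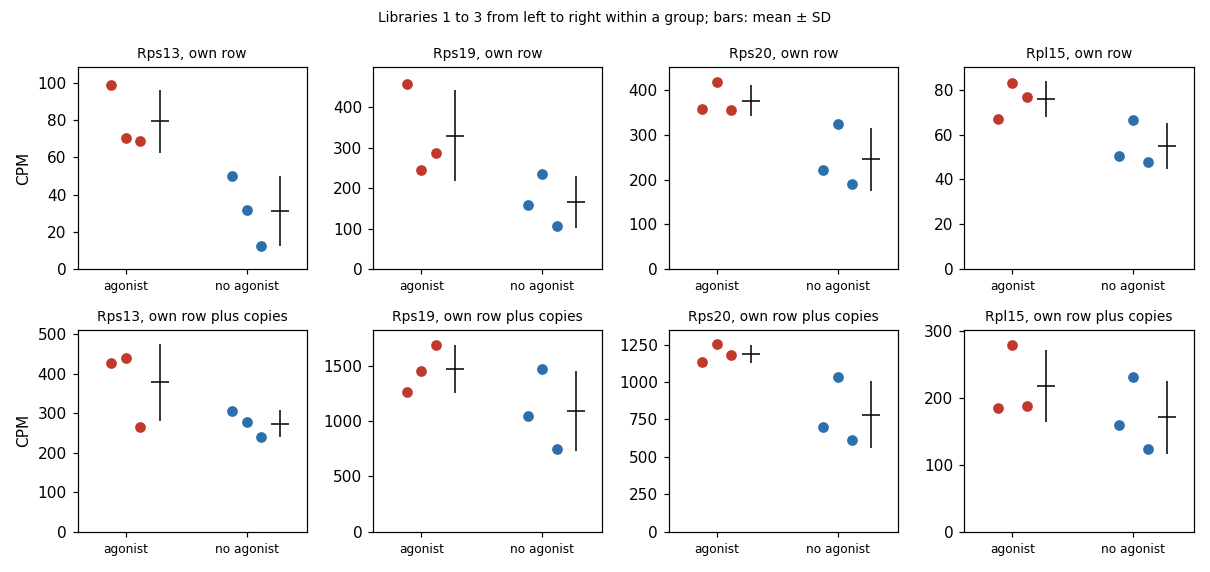
CPM in each library for Rps13, Rps19, Rps20 and Rpl15, on the gene's own row (top) and with the reads of its near-identical copies added (bottom), with agonist in red on the left, no agonist in blue on the right, and bars for the mean ± SD of 3 libraries. On their own rows the groups do not overlap in any of the 4 genes, and with the copies added they do not overlap in Rps20 and overlap in the other 3.

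Most values were positive with the copies added and on the copy rows alone. With the copies added, 67 of 78 genes had a positive log2 fold change and the median was 0.23. Of the 319 copy rows that could be tested on their own, 231 had a positive value and 88 a negative one, with a median of 0.22. The share of positive values over all genes was 52.2%, and their median 0.018. Because the copies are near-identical to the genes, reads of a gene can fall on either row. The copy rows are therefore not independent of the genes. At an unadjusted p under 0.05, 10 of the 319 copy rows were on the higher side and none on the lower. Over all genes these shares were 4.17% and 5.09%. The groups did not overlap in 18 copy rows on the higher side and 1 on the lower, against 6.94% and 7.61% of all genes. After adjustment 0 copy rows were called. The number of copies of a gene and its log2 fold change had a Spearman correlation of 0.02 across the 77 genes.

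Further genes with a positive value had overlapping groups. Rpl14, of the large subunit, measured 610, 645 and 534 CPM with agonist, against 435, 540 and 310 CPM without it, a log2 fold change of 0.48 ± 0.26 (SE). Rpl39, a small protein at the exit tunnel of the large subunit, measured 142, 237 and 193 CPM with agonist, against 117, 162 and 134 CPM without it, at 0.47 ± 0.25. In both, no-agonist library 2 lay above the lowest agonist library. Rps25 was at 0.49 ± 0.31 and Rpl13 at 0.39 ± 0.23. Among genes with a negative value, Rpl37a, which holds a zinc-binding fold, measured 45.1, 49.99 and 47.2 CPM with agonist, against 32.0, 60.04 and 79.5 CPM without it, at -0.27 ± 0.31. The no-agonist libraries lay on both sides of the agonist ones. Rps14 was at -0.22 ± 0.37, Rpl10 at -0.13 ± 0.24, Rps4x at -0.10 ± 0.35 and Rpl5, which binds the 5S ribosomal RNA, at -0.09 ± 0.19. None of these values exceeded its standard error. Rps14, Rpl37a, Rpl10, Rps4x and Rpl5 turned sign when some library was left out.

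The stalk genes were abundant and variable. Rplp0, the base of the stalk, measured 2655, 4162 and 3349 CPM with agonist, against 3135, 4273 and 2829 CPM without it, with a log2 fold change of -0.01 ± 0.32. Rplp1, an acidic protein that forms the tip of the stalk with Rplp2, measured 1726, 1885 and 2023 CPM with agonist, against 1641, 2241 and 1938 CPM without it, at -0.05 ± 0.26. Rplp2, its partner, measured 233, 164 and 130 CPM with agonist, against 110, 183 and 262 CPM without it, at -0.07 ± 0.36. The groups overlapped in all 3 genes. Rplp2 had both its highest and its lowest value in no-agonist libraries, 3 and 1. Rpsa, a small subunit protein also known as a laminin receptor, measured 872, 1252 and 659 CPM with agonist, against 850, 1352 and 793 CPM without it, at -0.11 ± 0.34. With its copies added it was at 0.29.

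Of the 4 genes that varied most between libraries, Rps13 and Rps19, described above, had groups that did not overlap, and Rpl30 and Rpl23a varied within both groups. Rpl30, of the large subunit, measured 9.07, 8.76 and 28.9 CPM with agonist, against 9.36, 25.8 and 4.13 CPM without it, with an SD of log2 CPM of 1.05 over the 6 libraries. It was high in 1 library of each group. With its 12 copies added it measured 183, 118 and 190 CPM with agonist, against 116, 166 and 83.6 CPM without it, a narrower span. Rpl23a, of the exit tunnel, measured 91.1, 59.6 and 111 CPM with agonist, against 63.3, 106 and 33.5 CPM without it, with an SD of 0.65. Rps13 and Rps19 had SDs of 1.07 and 0.72.

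The paralogs of the family with tissue-restricted expression were nearly absent. Rpl10l, known from the testis, had 0 counts in every library, while its namesake Rpl10 averaged 50.1 ± 9.47 CPM with agonist and 54.9 ± 13.3 CPM without it (SD, n = 3 each). Rpl3l, known from heart and skeletal muscle, had at most 0.32 CPM in a library, and Rpl39l, also known from the testis, at most 0.18 CPM. Their namesakes Rpl3 and Rpl39 averaged 80.4 ± 22.0 and 190.5 ± 47.6 CPM with agonist, and 79.1 ± 33.0 and 138 ± 22.8 CPM without it. Rps27l, a paralog of Rps27 known as a target of p53, had no near-identical copy and measured 95.6, 166 and 79.5 CPM with agonist, against 87.5, 119 and 108 CPM without it, a log2 fold change of 0.11 ± 0.30. Rps27 itself measured 15.7, 13.4 and 18.5 CPM with agonist, against 11.7, 15.4 and 11.8 CPM without it. Rps27rt, whose transcript is identical to that of Rps27 over 341 bases, held more reads than Rps27, at 495, 459 and 571 CPM with agonist, against 320, 447 and 247 CPM without it. Its groups did not overlap, and its log2 fold change was 0.59 ± 0.27 (SE, edgeR unadjusted p = 0.0614, adjusted p = 0.562). Rps4l, a row at 2.38 to 6.49 CPM, has no model in GENCODE M21 and was not compared per kilobase.

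A run of pyrimidines near the annotated start was more common in these genes than in all genes. RefSeq windows from 20 bases before to 50 after the annotated start, read on the strand of the gene, were at hand for 60 of the 81 genes. A run of at least 7 bases that are each C or T stood in 51 of these, or 85%, against 41.56% of the windows of 27025 genes. The windows of 4 genes named above are shown as 30 bases of GRCm38.p6 around the run, with the run in capitals.
Rpl15: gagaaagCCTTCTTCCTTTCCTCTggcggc
Rps19: cgcccgggaaaccccgtcgTTCCCTTTCCC
Rpl14: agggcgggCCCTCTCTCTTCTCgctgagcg
Rpl39: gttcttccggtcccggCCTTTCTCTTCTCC
They lie at chr14:18270968-18270997 (minus strand), chr7:24884612-24884641 (plus), chr9:120571501-120571530 (plus) and chrX:37085173-37085202 (minus). The search took a run anywhere in the window. The runs of Rps19 and Rpl39 close at the end of the window, 50 bases after the annotated start, and do not begin at that start. The median log2 fold change was 0.15 for the 49 tested genes with a run and 0.25 for the 8 without one, as a description of few genes.

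Other genes of protein synthesis, given by list, had medians from -0.06 to 0.21. Of 8 ribosome-associated genes outside the naming rule, 6 had a positive value, with a median of 0.16. Of these 8, Rps27rt and Rpl22l1 had groups that did not overlap on the higher side, against 6.94% of all genes. Rpl22l1, a paralog of Rpl22, was at 0.42 ± 0.19. Gnb2l1, which encodes the ribosome-bound scaffold RACK1, was at 0.23 ± 0.32, and Fau, which encodes a ribosomal protein fused to a ubiquitin-like protein, at 0.09 ± 0.19. Among 13 tested genes in a list of elongation factors and related genes, 4 were positive and the median was -0.06. Of the elongation factors, Eef1a1 was at 0.14 ± 0.33 and Eef2 at 0.17 ± 0.28, and of the related genes Tpt1 was at -0.06 ± 0.18. Among 36 initiation genes 16 were positive, with a median of -0.01 and Pabpc1, the poly(A)-binding protein, at 0.07 ± 0.24. In both lists 0 genes had an unadjusted p under 0.05, against 4.17% higher and 5.09% lower of all genes.

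Among 74 genes of ribosome assembly 42 were positive, with a median of 0.02. At an unadjusted p under 0.05 there was 1 on the higher side and none on the lower, against 4.17% and 5.09% of all genes. The 1 higher gene was Npm1, a nucleolar chaperone, which measured 195, 280 and 230 CPM with agonist, against 149, 146 and 159 CPM without it, a log2 fold change of 0.63 ± 0.21 (SE, edgeR unadjusted p = 0.0161, adjusted p = 0.406). Its no-agonist libraries lay close together and below all agonist libraries, with no-agonist library 2 the lowest. Ncl, nucleolin, was at 0.40 ± 0.23 with groups that did not overlap, and Fbl, fibrillarin, at 0.23 ± 0.43. In this list 2 genes did not overlap on the higher side and 1 on the lower, against 6.94% and 7.61% of all genes. The 20 genes of RNA polymerase I transcription had a median of 0.03 and the 23 of mTOR signalling and its readers one of -0.01, with Mtor at -0.01 ± 0.20, Larp1 at -0.12 ± 0.23 and Myc at 0.21 ± 0.41. In both, 0 genes had an unadjusted p under 0.05, against the same 4.17% and 5.09% of all genes. The 12 tested host genes of small nucleolar RNAs, whose transcripts can share the pyrimidine start, had 9 positive values and a median of 0.21, with Snhg6 at 0.48 ± 0.28.

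The mitochondrial ribosome, set beside the cytoplasmic one, had a median of 0.005 over 76 genes, of which 41 were positive. The groups did not overlap in 3 genes on the higher side and 2 on the lower, against 6.94% and 7.61% of all genes. At an unadjusted p under 0.05, 0 were higher and 1 was lower, against 4.17% and 5.09% of all genes. The 1 lower gene was Mrpl36, a protein of the large subunit of the mitochondrial ribosome. It measured 49.9, 56.4 and 45.3 CPM with agonist, against 68.4, 78.5 and 84.2 CPM without it, a log2 fold change of -0.61 ± 0.18 (SE, edgeR unadjusted p = 0.0104, adjusted p = 0.368). The median level of the mitochondrial list was -0.047, 0.22 and -0.13 in agonist libraries 1, 2 and 3, against -0.019, 0.18 and -0.25 in no-agonist libraries 1, 2 and 3. No-agonist library 2 was the highest of its group in this list as well, as it was for the genes of elongation, initiation and assembly.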

How the data were processed

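The authors deposited 1 table of whole-number read counts per gene symbol for 6 libraries, and no normalization of these counts is recorded. Reads were counted with HTSeq 0.6.1 on mm10 (GRCm38), per the submitters' processing notes. Per the labels' protocols, RNA needed an integrity number over 8.0, and single-end reads came from Ion Proton sequencers. Not given in the sources used here are the aligner, the annotation, the strand setting and the treatment of reads with several placements, the last of which decides how reads were shared between a gene and its pseudogenes.

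R 4.3.3 with edgeR 4.0.16 tested 16581 genes (filterByExpr, TMM factors, quasi-likelihood F-test, Benjamini-Hochberg adjusted p under 0.05). CPM use TMM-scaled library sizes, and log2 levels a prior count of 2. limma 3.58.1 and DESeq2 1.42.0 gave alternatives. The test was also run on simulated data, with changes larger than the median change of these genes, so that run does not bear on small changes. Copies were found with blastn 2.17.0. Level per kilobase uses the principal GENCODE M21 transcript. Start windows and their sequences are from RefSeq (GRCm38.p6).

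Named genes were the stalk genes, Rpsa, paralogs and their namesakes, the highest 6 and lowest 3 per kilobase, up to 8 per direction with the smallest p, the 4 most variable, and up to 3 of each companion list with the smallest p, plus fixed names. Some genes that these rules name are not reported here. The gene members, lists and rules were chosen with earlier results of these data known.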

Additional observations from a re-analysis of the deposited data

How the results depend on the processing

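No paired analysis was possible because the labels give the 2 groups no replicate number in common. With every alternative run, 0 ribosomal protein genes were called and the median log2 fold change stayed above 0 (lowest 0.078, highest 0.37), as did the log2 fold changes of Rps13, Rps19, Rps20, Rpl15 and Npm1, while that of Mrpl36 stayed below 0. Counts depended on the scaling. With library totals alone, 8 genes were higher at an unadjusted p under 0.05 in place of 3, 12 did not overlap on the higher side in place of 4 (7.19% and 12.3% of all genes, against 4.17% and 6.94%), and the log2 fold changes of Rplp0 (0.16), Rplp1 (0.13), Rplp2 (0.10), Rpsa (0.057), Rpl10 (0.043), Rps4x (0.093), Rpl21 (0.15) and Rpl5 (0.080) turned positive. With upper-quartile factors 8 did not overlap on the higher side (8.34% of all genes), and Rplp0 (0.036), Rplp1 (0.00042) and Rpl21 (0.022) turned. TMM factors without ribosomal, 18S and mitochondrial rows turned Rplp0 (0.00071), and limma-voom turned Rpl21 (0.0032). A filter of at least 5 CPM in 3 libraries gave 7 and 0 genes that did not overlap on the higher and the lower side (6.84% and 7.95% of all genes), where Rpl29 was no longer tested, and Rplp0 at 0.0056. Without agonist library 1 and no-agonist library 2 together, 5 genes were higher at an unadjusted p under 0.05 (4.27% of all genes), 40 and 2 did not overlap (21.6% and 20.2% of all genes), and Rplp0 (0.34), Rplp1 (0.13), Rpsa (0.23), Rpl10 (0.20), Rps4x (0.13), Rpl21 (0.43) and Rpl5 (0.095) turned. No-agonist library 2 was the highest for many of these genes, so a rise of the higher count without it was largely set in advance.

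With the -ps rows added to their namesakes 2 and 0 genes did not overlap (6.93% and 7.58% of all genes), Rpsa (0.28) and Rpl21 (0.023) turned, and the share of counts was 5.34% with agonist and 4.22% without it. With all copies added 1 gene was higher at an unadjusted p under 0.05 (4.21% of all genes), Rplp0 (0.050), Rpsa (0.29), Rpl29 (0.30) and Rpl5 (0.027) turned, and the shares were 7.81% and 6.23%. The cause of these turns was not tested.

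With 1 library left out at a time, 1 to 10 genes were higher and 0 to 1 lower at an unadjusted p under 0.05. Of all genes, 3.10 to 5.21% were higher and 3.14 to 6.41% lower at that p. In the same runs 4 to 34 and 1 to 5 ribosomal protein genes did not overlap on the higher and the lower side. The 34 came without no-agonist library 2, the highest library for many of these genes. Fewer libraries leave fewer values to overlap: of all genes, 10.3 to 15.05% and 10.1 to 14.1% then did not. The log2 fold changes ranged from -0.18 to 0.19 for Rplp0, -0.16 to 0.075 for Rplp1, -0.34 to 0.27 for Rplp2, -0.38 to 0.18 for Rpsa, -0.24 to 0.37 for Rpl3, -0.28 to 0.075 for Rpl10, -0.44 to 0.29 for Rps4l, -0.33 to 0.17 for Rps4x, -0.26 to 0.32 for Rps27l, -0.45 to 0.14 for Rps14, -0.075 to 0.52 for Rpl41, -0.19 to 0.31 for Rps2, -0.22 to 0.25 for Rpl21, -0.56 to 0.051 for Rpl37a, -0.20 to 0.011 for Rpl5 and -0.55 to 1.21 for Rpl30.

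Few counts on their own rows limited Rpl29 and Rps2, with 19 to 60 in a library, and the untested Rpl3l, Rpl39l and Rpl10l. Rpl29 and Rps2 held 6.99% and 0.628% of the reads on themselves and their copies.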
